A study of Mus musculus with 20 samples.

Results

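The genes described here are 45 genes of the cell division cycle, taken by symbol from a count table of 43629 genes. They are cyclins and their kinases, genes that license and carry out DNA replication, genes of mitosis, and the CDK inhibitors Cdkn1a and Cdkn1b, and all 45 were found in the table. Nuclei were taken from mouse spinal cord and sorted on NeuN, a nuclear protein encoded by Rbfox3 that marks most mature neurons, and their polyadenylated RNA was sequenced. The groups were NeuN-positive nuclei of mice with experimental autoimmune encephalomyelitis (EAE), NeuN-positive nuclei of healthy mice, NeuN-negative nuclei of EAE mice and NeuN-negative nuclei of healthy mice, with 5 libraries each. EAE is a disease model in which immune cells enter the central nervous system and attack myelin. It had been induced by active immunization, and spinal cords were taken at day 15. The labels give no strain, sex, age, antigen or sham treatment of the healthy mice, and do not say whether a library is 1 mouse or a pool. The p-values below therefore measure the spread between these libraries. In bulk RNA, fewer cells of a type and less RNA per cell cannot be told apart, and the same holds for more of either.

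A cell enters the cycle when D-type cyclins with Cdk4 or Cdk6, and then E-type cyclins with Cdk2, phosphorylate the retinoblastoma protein and free E2F factors to switch on genes for DNA replication. Origins are licensed by loading the MCM helicase in G1, DNA is copied in S phase, and cyclins A and B with Cdk1 drive mitosis, where genes for the spindle, kinetochores and chromosome structure are used. Most neurons and mature oligodendrocytes of the adult spinal cord have left the cycle for good, while oligodendrocyte precursors, microglia and immune cells that enter the cord in EAE can divide.

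Promoters of 6 of the genes are printed here, 3 for mitosis and 3 for the licensing of replication. They were picked from the genes called higher in EAE below because they hold matches of differing motifs. Genes of late S phase and mitosis are classically read from a cell cycle homology region (CHR, searched as TTTGAA or TTCGAA) beside CCAAT boxes (CCAAT), and genes of G1 and early S phase from E2F sites (searched as TTTCCCGC, TTTCGCGC, TTTGCCGC or TTTGGCGC). Each motif was searched on both strands of 300-base windows, from 250 bases before to 50 bases after the RefSeq start (GRCm38.p6), and matches are in capitals, so that reverse matches appear as their reverse complement. The mitotic genes Mki67 (chr7:135716330-135716629, minus strand), Top2a (chr11:99024140-99024439, minus strand) and Cenpf (chr1:189688037-189688336, minus strand) read, 5′ to 3′:
Mki67: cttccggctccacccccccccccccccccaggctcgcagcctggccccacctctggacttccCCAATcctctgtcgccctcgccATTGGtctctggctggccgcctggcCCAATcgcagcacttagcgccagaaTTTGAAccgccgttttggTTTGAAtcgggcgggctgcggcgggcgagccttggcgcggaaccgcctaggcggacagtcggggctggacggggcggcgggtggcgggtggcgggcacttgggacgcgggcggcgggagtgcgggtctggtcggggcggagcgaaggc
Top2a: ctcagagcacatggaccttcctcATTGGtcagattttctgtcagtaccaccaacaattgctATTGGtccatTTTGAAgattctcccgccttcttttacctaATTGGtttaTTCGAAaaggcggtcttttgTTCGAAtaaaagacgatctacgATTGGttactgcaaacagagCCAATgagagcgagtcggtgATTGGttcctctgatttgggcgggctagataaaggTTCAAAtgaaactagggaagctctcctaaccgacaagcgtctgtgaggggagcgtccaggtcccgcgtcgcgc
Cenpf: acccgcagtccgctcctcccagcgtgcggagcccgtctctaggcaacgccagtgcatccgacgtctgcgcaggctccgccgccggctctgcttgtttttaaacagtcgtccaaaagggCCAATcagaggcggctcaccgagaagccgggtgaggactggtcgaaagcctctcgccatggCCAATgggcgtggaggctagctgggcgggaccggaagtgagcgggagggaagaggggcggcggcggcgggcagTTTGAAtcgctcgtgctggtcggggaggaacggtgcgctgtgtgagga
The licensing genes Mcm3 (chr1:20820263-20820562, minus strand), Mcm5 (chr8:75109259-75109558, plus strand) and Cdt1 (chr8:122567765-122568064, plus strand) read, 5′ to 3′:
Mcm3: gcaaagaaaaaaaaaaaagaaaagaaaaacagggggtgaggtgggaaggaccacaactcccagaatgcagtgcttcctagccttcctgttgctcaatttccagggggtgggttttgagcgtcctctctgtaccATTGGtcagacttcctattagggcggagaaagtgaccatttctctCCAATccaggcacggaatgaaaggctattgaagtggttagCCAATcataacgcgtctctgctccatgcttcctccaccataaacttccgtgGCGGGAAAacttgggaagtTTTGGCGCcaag
Mcm5: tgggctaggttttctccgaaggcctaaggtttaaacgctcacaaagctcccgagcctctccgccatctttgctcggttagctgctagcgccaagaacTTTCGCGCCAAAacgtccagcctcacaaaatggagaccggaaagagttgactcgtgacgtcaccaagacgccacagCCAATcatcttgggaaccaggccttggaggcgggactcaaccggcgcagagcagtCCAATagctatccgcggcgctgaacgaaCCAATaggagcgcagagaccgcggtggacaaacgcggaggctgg
Cdt1: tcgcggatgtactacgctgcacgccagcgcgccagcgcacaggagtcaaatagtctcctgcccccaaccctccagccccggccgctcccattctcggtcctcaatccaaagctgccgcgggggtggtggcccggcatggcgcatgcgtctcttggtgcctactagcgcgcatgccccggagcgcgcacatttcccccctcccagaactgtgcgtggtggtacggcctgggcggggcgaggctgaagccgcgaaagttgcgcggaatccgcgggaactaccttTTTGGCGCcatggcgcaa
Top2a held 4 CHR and 6 CCAAT matches, Mki67 2 and 3, and Cenpf 1 and 2, and none of these windows held an E2F match. Mcm3 and Mcm5 held 2 E2F matches each, which share bases in Mcm5, with 3 CCAAT boxes each. Cdt1 held 1 E2F match, with no CHR or CCAAT match. E2f1, Birc5, Ccne1, Cdk6 and Nusap1 were also called higher in EAE NeuN-negative nuclei. Their windows held no match of any of these motifs and are not printed.

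RefSeq windows were found for 37 of the 45 genes; Ccnd1, Ccnd2, Ccne2, Mcm4, Ccna2, Aurkb, Kif20a and Tpx2 had none in the table used. CHR matches stood in 15 of the 37 genes (40.5%), against 19.2% of the 32851 promoters in the table. CCAAT boxes stood in 26 of 37 (70.3%), against 37.4%, and E2F matches in 8 of 37 (21.6%), against 2.26%. The CHR matches lay in 9 of 12 genes of chromosomes, spindle and division and in 3 of 4 of the mitotic cyclin group, and also in the licensing genes Cdc45, Mcm2 and Mcm7. The E2F matches lay in 6 of 8 licensing genes, in Cdk2 and in Cdk1. The 37 genes have 40 windows, as Mcm7, Cdkn1a and Ccnd3 have 2 each, and different motifs shared bases in 1 of the 40. A match is a description of letters and not of a bound site.

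Library totals ran from 3149209 to 37689267 counts. Levels are given as CPM, a gene's count relative to the total of its library after TMM scaling over the 20 libraries. Fold changes rest on TMM scaling over the libraries of their own fit, so they need not equal the ratio of the printed CPM. Values of a group are listed in the order of replicates 1 to 5. Rbfox3 averaged 202 ± 73.2 CPM in EAE and 329 ± 35.9 CPM in healthy NeuN-positive libraries, and 27.2 ± 13.2 CPM in EAE and 29.5 ± 11 CPM in healthy NeuN-negative libraries (SD, n = 5 each). Of 14 neuron markers, 11 were higher in NeuN-positive than in NeuN-negative nuclei, in EAE as in healthy mice. EAE replicates 2 and 4 and healthy replicate 3 stood apart. Their NeuN-positive libraries held 9.35%, 5.30% and 3.0% mitochondrially encoded counts, against 1.08% to 1.22% in the other EAE and 0.197% to 0.833% in the other healthy NeuN-positive libraries, and 51100 to 92600 CPM (EAE) and 44400 CPM (healthy) of 12 oligodendrocyte markers, against 11300 to 14600 CPM (EAE) and 3970 to 12200 CPM (healthy). In NeuN-negative nuclei the mitochondrial share was 2.18% to 14.6% in EAE and 0.367% to 4.51% in healthy libraries. Without the 3 replicates every EAE share lay above every healthy share within each sort, and the part of this in the results was not tested. The main results are also given without these 3 replicates, both sorts left out.

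In NeuN-positive nuclei 8 of the 41 genes that could be tested were higher in EAE and 1 was lower, and in NeuN-negative nuclei 21 of the 45 were higher and 0 lower. The genes were read from a test of the whole table (edgeR quasi-likelihood, Benjamini-Hochberg adjustment over all genes tested, called at an adjusted p under 0.05). In NeuN-positive nuclei the share called higher was 19.5% of the 41, against 6.55% of the 16675 genes tested, and 3.68% of all genes were called lower. In NeuN-negative nuclei the share called higher was 46.7%, against 15.1% of the 17604 genes tested, and 12.6% of all genes were called lower. The median log2 fold change, EAE over healthy, was 0.76 over the 41 genes in NeuN-positive nuclei, against -0.03 over all genes. It was 1.47 over the 45 genes in NeuN-negative nuclei, against 0.05 over all genes. Ccnb1, Cdc20, Aurkb and Bub1 had too few counts for the test in NeuN-positive nuclei. The count filter passes a gene well counted in 1 group alone, for these genes as for all others. Mki67, Top2a, Cenpf, Cdk6 and Mcm3 had 40, 19, 37, 40 and 46 counts over the 5 healthy NeuN-positive libraries. They entered the test there through the EAE libraries, so a lower call was hardly open to them. The same holds in NeuN-negative nuclei for Ccnb1, Aurkb and Bub1, with 30, 45 and 40 healthy counts. An unadjusted p under 0.05 was reached by 29 genes upward and 0 downward in NeuN-negative nuclei, with no share over all genes to set beside them. The DESeq2 Wald test called 26 higher and 0 lower in NeuN-negative nuclei. Of all 17604 genes the Wald test called 3638 higher and 2617 lower there.

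**Figure D1:**
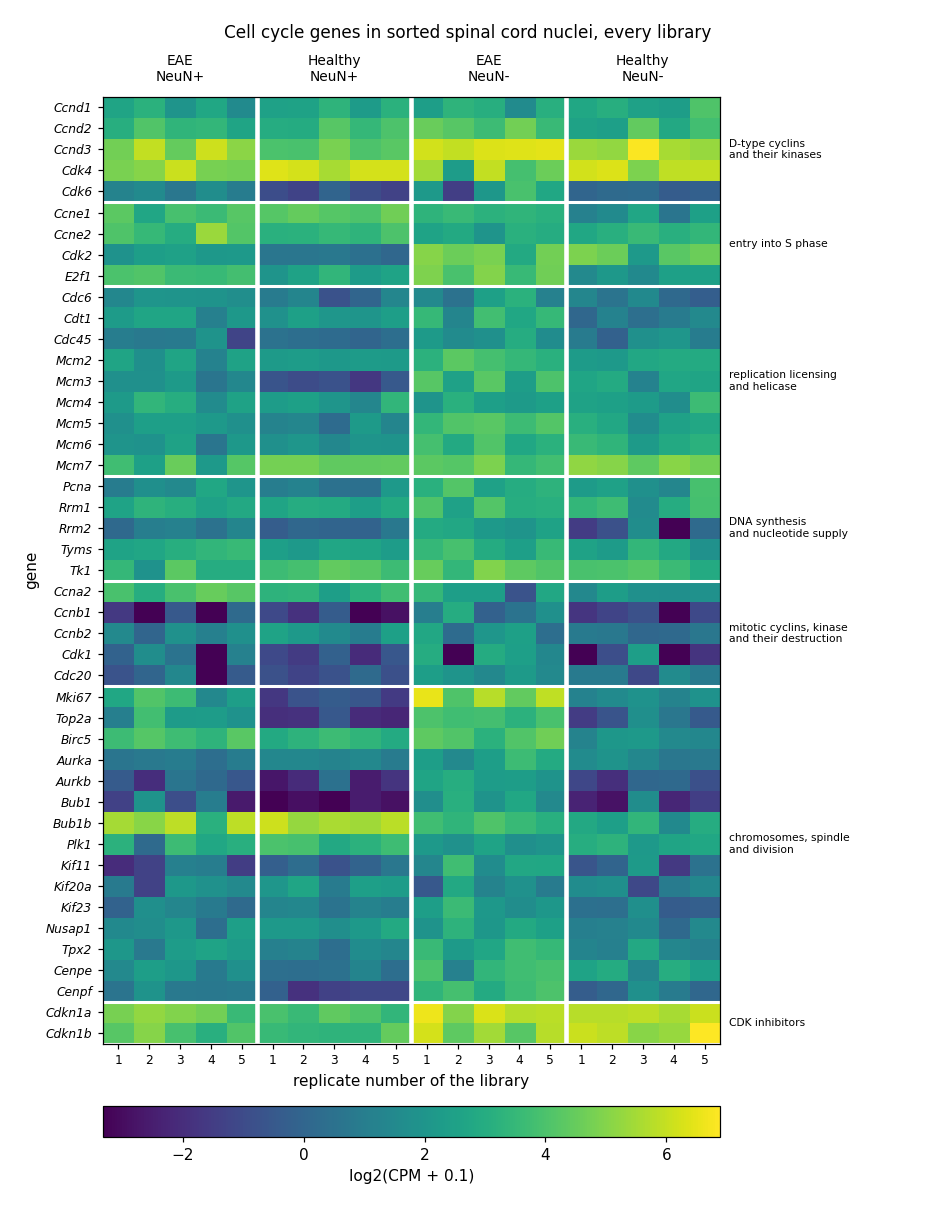
Level of each of the 45 genes in each library, as log2(CPM + 0.1), with genes in rows by role and libraries in columns by group (5 each, replicates 1 to 5). The rows Mki67, Top2a and Cenpf are darkest in healthy NeuN-positive libraries, where Top2a stays at or below 0.594 CPM.

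Without the 3 replicates, 9 genes were higher and 0 lower of 43 tested in NeuN-positive nuclei, and 30 were higher and 0 lower in NeuN-negative nuclei. Of all genes tested, 1249 of 17315 were then higher in NeuN-positive and 3197 of 18333 in NeuN-negative nuclei. The medians were then 0.48 over 43 genes in NeuN-positive and 1.41 over 45 in NeuN-negative nuclei. In NeuN-positive nuclei Cdk1 and Aurkb were added, at log2 fold changes of 2.21 ± 0.58 (adjusted p = 0.0421) and 2.96 ± 0.61 (adjusted p = 0.0157), while Ccnd3 and Cdk4 missed the threshold. The 9 further genes in NeuN-negative nuclei were Ccnd2, Ccnd3, Tyms, Tk1, Ccna2, Ccnb2, Cdk1, Cenpe and Cdkn1a, and none of the 21 was lost. The 8 calls in NeuN-positive nuclei were 5, 4, 4 and 5 without healthy replicates 1, 2, 4 and 5. Over all genes the 1092 higher calls there became 747, 677, 811 and 907. The 21 calls in NeuN-negative nuclei were 11 without healthy replicate 1 and 12 without healthy replicate 2, and Cdk4 was called lower without EAE replicate 3. Over all genes the 2650 higher calls there became 1863 and 1796 without healthy replicates 1 and 2. Over 17 alternative settings of each test, Mki67, Top2a, Mcm3 and Cdk2 were called in every one in NeuN-positive nuclei. In NeuN-negative nuclei 10 of the 21 were, namely Ccne1, E2f1, Cdt1, Mcm5, Ccnb1 (in the 15 settings that tested it), Mki67, Top2a, Birc5, Aurkb and Cenpf.

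Markers of immune cells, and of fibroblasts and pericytes, were higher in the same EAE libraries. In NeuN-positive nuclei 11 of 12 monocyte and macrophage markers, 7 of 7 tested neutrophil markers, 7 of 10 tested T cell markers and 4 of 11 tested microglia markers were called higher. In NeuN-negative nuclei these were 11 of 12, 7 of 8, 13 of 14 and 3 of 12 (with 1 microglia marker lower). Of the 10 fibroblast and pericyte markers, 5 were higher in each sort, with medians of 1.32 in NeuN-positive and 0.77 in NeuN-negative nuclei. Their sum ran from 105 to 413 CPM in EAE and 68.7 to 134 CPM in healthy NeuN-positive libraries, and from 336 to 1200 CPM in EAE and 322 to 697 CPM in healthy NeuN-negative libraries. The 4 B and plasma cell markers tested in NeuN-positive nuclei had a median of -0.20, and 5 of 8 were higher in NeuN-negative nuclei. Their sum ran from 117 to 357 CPM in EAE and 252 to 363 CPM in healthy NeuN-positive libraries, and from 56.3 to 392 CPM in EAE and 74.4 to 101 CPM in healthy NeuN-negative libraries. In EAE NeuN-negative nuclei 8 of 10 oligodendrocyte precursor markers, 6 of 12 oligodendrocyte markers and 3 of 10 astrocyte markers were lower. Their sums overlapped between EAE and healthy NeuN-negative libraries, at 1550 to 3750 against 2000 to 2780 CPM for precursors. For oligodendrocytes they were 35500 to 94700 against 42800 to 70200 CPM, and for astrocytes 737 to 2690 against 1650 to 3820 CPM. In EAE NeuN-positive nuclei 2 of 12 oligodendrocyte, 2 of 10 astrocyte and 0 of 10 precursor markers were higher, and none was lower. The summed monocyte and macrophage markers ran from 369 to 1870 CPM in EAE and 36.6 to 61.9 CPM in healthy NeuN-positive libraries, and from 747 to 3040 CPM in EAE and 120.0 to 270.0 CPM in healthy NeuN-negative libraries. The summed neutrophil markers, of which Cxcr2 had no count in healthy NeuN-positive libraries, ran from 19.7 to 146 CPM in EAE and 1.97 to 7.92 CPM in healthy NeuN-positive libraries, and from 121 to 581 CPM in EAE and 82.5 to 135 CPM in healthy NeuN-negative libraries. The summed microglia markers ran from 126 to 215 CPM in EAE and 30.5 to 59.8 CPM in healthy NeuN-positive libraries, and from 367 to 1540 CPM in EAE and 587 to 755 CPM in healthy NeuN-negative libraries. The sum of the T cell markers, which holds the neuronal gene Thy1, ran from 494 to 780 CPM in EAE and 629 to 1040 CPM in healthy NeuN-positive libraries, and from 208 to 681 CPM in EAE and 95.5 to 235 CPM in healthy NeuN-negative libraries. The T cell receptor gene Cd3e had 1.48 to 4.72 CPM in EAE and 0.0386 to 0.891 CPM in healthy NeuN-positive libraries, and 5.91 to 20.6 CPM in EAE and 0.324 to 0.969 CPM in healthy NeuN-negative libraries. The part of these cells in the levels of the cell cycle genes was not tested.

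**Figure D2:**
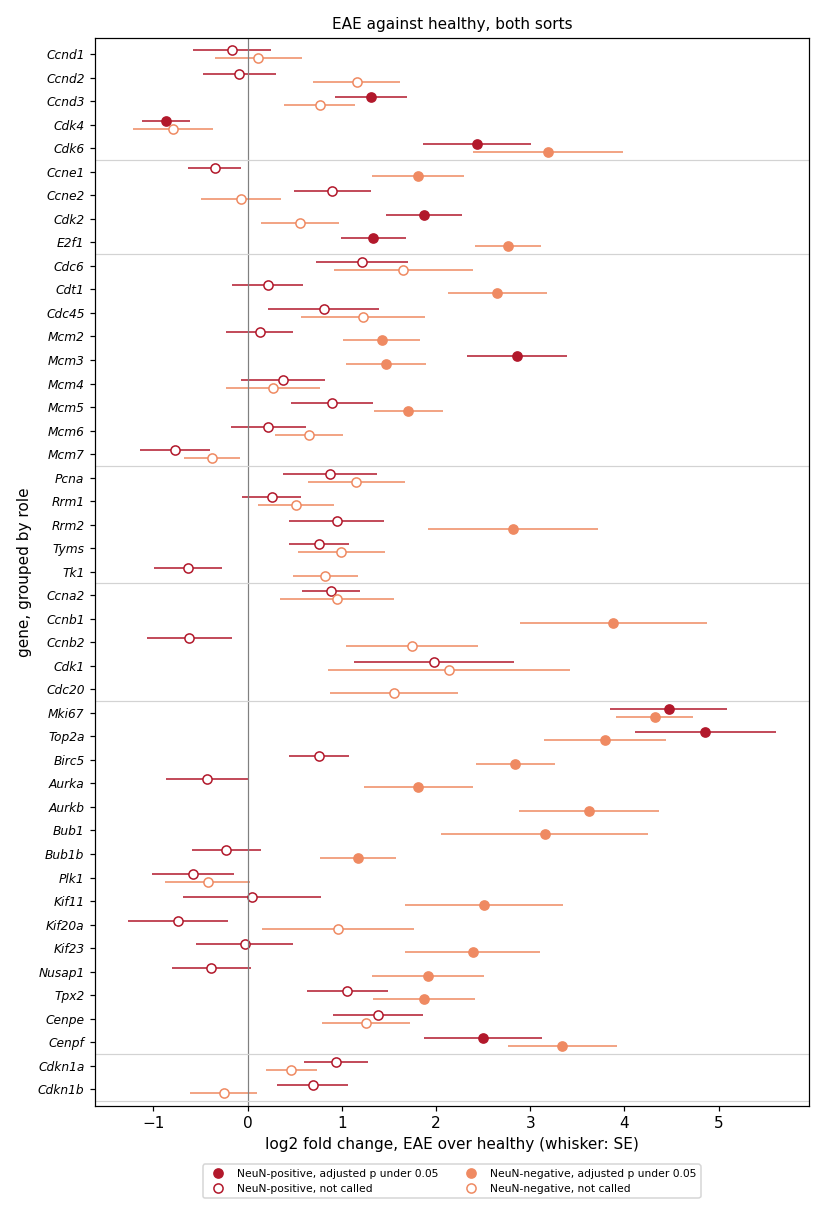
Log2 fold change of each of the 45 genes, EAE over healthy, in NeuN-positive (dark red) and NeuN-negative (orange) nuclei, with the standard error as whisker and filled points for an adjusted p under 0.05. In the block of chromosome, spindle and division genes 3 dark red points are filled, Mki67, Top2a and Cenpf, and 12 of 15 orange points.

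Of the D-type cyclins and their kinases, which start the response to growth signals, Cdk6 was higher in EAE in both sorts. Ccnd3 was higher and Cdk4 lower in NeuN-positive nuclei, and cyclins D1 and D2 were called in neither sort. Cdk6 had 2.29, 2.83, 1.53, 3.08 and 1.84 CPM in EAE and 0.428, 0.310, 0.891, 0.421 and 0.308 CPM in healthy NeuN-positive libraries, which did not overlap, and the log2 fold change was 2.44 ± 0.58 (standard error; edgeR adjusted p = 0.0172). In NeuN-negative libraries it had 4.54, 0.271, 4.15, 15.6 and 6.70 CPM in EAE and 0.899, 1.05, 1.09, 0.674 and 0.784 CPM in healthy mice. Here 4 EAE libraries lay above all healthy ones and EAE replicate 2 lay below them, and the log2 fold change was 3.19 ± 0.80 (adjusted p = 0.00838). The counts behind Cdk6 were low, with 126 counts over the 5 EAE and 40 over the 5 healthy NeuN-positive libraries. Cyclin D3 had 26.1, 61.8, 22.01, 69.4 and 34.4 CPM in EAE and 16.1, 15.6, 28.3, 16.2 and 19.5 CPM in healthy NeuN-positive libraries, at 1.31 ± 0.38 (adjusted p = 0.0443). The groups overlap, the EAE replicates 2 and 4 were highest, and without the 3 replicates the value was 0.85 ± 0.25 (adjusted p = 0.0577). In NeuN-negative libraries cyclin D3 had 72.4, 61.2, 81.9, 82.7 and 87.6 CPM in EAE and 40.5, 37.5, 113, 47.3 and 39.6 CPM in healthy mice. Every EAE value lay above 4 of the healthy ones and below that of healthy replicate 3, and the log2 fold change was 0.76 ± 0.38 (adjusted p = 0.136), or 1.25 ± 0.24 without the 3 replicates (adjusted p = 0.00219).

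Cdk4 went the other way in NeuN-positive nuclei, with 28.7, 32.5, 66.9, 27.8 and 26.4 CPM in EAE and 83.1, 75.3, 46.3, 75.5 and 74.3 CPM in healthy libraries. Here 4 EAE libraries lay below all healthy ones, EAE replicate 3 lay among them, and the log2 fold change was -0.86 ± 0.25 (adjusted p = 0.0451). The call was lost in 12 of the 17 alternative settings, in 8 of the 10 that leave out a single library, and without the 3 replicates (adjusted p = 0.0875). In NeuN-negative libraries Cdk4 had 43.7, 4.87, 62.3, 14.7 and 24.3 CPM in EAE and 73.04, 80.4, 29.1, 59.5 and 62.5 CPM in healthy mice, overlapping, at -0.79 ± 0.42 (adjusted p = 0.167). In the GENCODE M21 models 19.7% of its exon bases are also exon of Tspan31 on the other strand, and reads of such pairs cannot be told apart, since the sources used here do not give whether strand was counted. Cyclin D1 had 6.06, 9.10, 3.81, 6.61 and 2.83 CPM in EAE and 5.57, 5.73, 9.996, 4.70 and 8.98 CPM in healthy NeuN-positive libraries, and its log2 fold change was -0.16 ± 0.42 (adjusted p = 0.823). In NeuN-negative libraries it had 5.14, 9.75, 8.42, 2.94 and 8.67 CPM in EAE and 6.70, 8.33, 5.57, 5.06 and 16.9 CPM in healthy mice, at 0.12 ± 0.46 (adjusted p = 0.869). That fold change is positive although the ratio of the mean CPM, EAE over healthy, was 0.819. Fold changes and CPM were scaled over different sets of libraries. In NeuN-negative nuclei the fold changes of Mcm2, Mcm5, Mcm7, Birc5 and Cenpf also lay above their ratios of mean CPM (2.05, 2.51, 0.617, 5.59 and 7.76). The groups of cyclin D1 overlap in both sorts, and 23.4% of its exon bases overlap LTO1 on the other strand. Cyclin D2 had 8.43, 17.4, 10.1, 10.9 and 6.05 CPM in EAE and 7.81, 7.76, 18.6, 11.1 and 16.2 CPM in healthy NeuN-positive libraries (-0.09 ± 0.39, adjusted p = 0.903). It had 23.2, 18.9, 12.8, 26.3 and 12.1 CPM in EAE and 5.75, 5.26, 21.4, 7.08 and 13.8 CPM in healthy NeuN-negative libraries, where healthy replicates 3 and 5 lay among the EAE values. That log2 fold change was 1.16 ± 0.46 (adjusted p = 0.0704), and 1.27 ± 0.39 without the 3 replicates (adjusted p = 0.0273).

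Of the 4 genes of entry into S phase, E2f1 was higher in EAE in both sorts, Cdk2 in NeuN-positive and cyclin E1 in NeuN-negative nuclei. E2f1, a transcription factor that turns on replication genes, had 16.1, 17.4, 12.2, 11.7 and 14.3 CPM in EAE and 3.80, 5.83, 10.5, 4.70 and 6.02 CPM in healthy NeuN-positive libraries. All EAE libraries lay above all healthy ones, at 1.33 ± 0.35 (adjusted p = 0.0273), a call lost in 8 of the 17 alternatives. Levels in NeuN-negative libraries were 30.2, 15.4, 32.2, 11.6 and 25.1 CPM in EAE and 2.70, 4.29, 2.79, 5.51 and 5.49 CPM in healthy mice. The groups are again apart, at 2.76 ± 0.35 (adjusted p = 4.39e-05), and the call held in all 17 alternatives. Cdk2, the kinase of cyclins E and A, had 3.62, 5.22, 5.69, 4.26 and 4.34 CPM in EAE and 1.5, 1.52, 1.58, 1.26 and 0.964 CPM in healthy NeuN-positive libraries, with no overlap, at 1.87 ± 0.40 (adjusted p = 0.0102). In NeuN-negative libraries Cdk2 had 32.3, 23.8, 28.6, 7.26 and 26.4 CPM in EAE and 29.5, 23.8, 4.48, 19.2 and 24.4 CPM in healthy mice. Those ranges overlap, with EAE replicate 4 and healthy replicate 3 lowest, and the value was 0.56 ± 0.41 (adjusted p = 0.319). Each NeuN-positive EAE library stayed below every NeuN-negative EAE library for Cdk2.

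Cyclin E1, which activates Cdk2, differed between the sorts. In NeuN-positive libraries it had 19.97, 6.41, 15.1, 12.5 and 18.9 CPM in EAE and 18.1, 22.1, 18.1, 16.2 and 25.1 CPM in healthy mice. Here 3 EAE libraries lay below all healthy ones, and the value was -0.35 ± 0.28 (adjusted p = 0.436). Levels in NeuN-negative libraries were 9.90, 11.9, 9.40, 10.2 and 8.91 CPM in EAE and 2.15, 2.87, 6.54, 1.46 and 5.46 CPM in healthy mice. All EAE libraries lay above all healthy ones, at 1.81 ± 0.49 (adjusted p = 0.0136). The EAE effect was lower in NeuN-positive than in NeuN-negative nuclei in the test of the difference itself, with a value of -1.97 ± 0.53 (adjusted p = 0.0445) on the log2 scale, a call lost in 18 of 26 alternatives. The related cyclin E2 ranged over 7.90 to 40.2 CPM in EAE and 8.88 to 16.4 CPM in healthy NeuN-positive libraries, and over 3.75 to 8.82 CPM in EAE and 6.64 to 11.9 CPM in healthy NeuN-negative libraries. It was called in neither sort (0.90 ± 0.41, adjusted p = 0.16, in NeuN-positive and -0.07 ± 0.42, adjusted p = 0.914, in NeuN-negative nuclei), and 17.4% of its exon bases overlap Ints8 on the other strand.

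Of the 9 genes that license and open replication origins, Mcm3 was higher in EAE in NeuN-positive nuclei, and Cdt1, Mcm2, Mcm3 and Mcm5 in NeuN-negative nuclei. Cdt1 loads the MCM helicase onto origins and carries the E2F match printed above. It had 4.73, 6.26, 6.25, 2.06 and 4.28 CPM in EAE and 3.53, 5.49, 4.06, 3.93 and 5.13 CPM in healthy NeuN-positive libraries, overlapping, at 0.21 ± 0.38 (adjusted p = 0.738). In NeuN-negative libraries it had 11.5, 2.44, 13.6, 6.75 and 11.3 CPM in EAE and 0.949, 2.23, 1.21, 1.80 and 2.70 CPM in healthy mice. The lowest EAE value, in replicate 2, was below the highest healthy value, and the log2 fold change was 2.65 ± 0.52 (adjusted p = 0.0018). The difference between the sorts was -2.30 ± 0.64 (adjusted p = 0.0506), just short of a call, and -2.36 (adjusted p = 0.0215) with the replicate number as a block. Mcm3, a subunit of the helicase, had 3.40, 3.43, 4.61, 1.47 and 2.57 CPM in EAE and 0.535, 0.414, 0.495, 0.211 and 0.617 CPM in healthy NeuN-positive libraries. The groups do not overlap, the log2 fold change was 2.86 ± 0.53 (adjusted p = 0.00351), and the counts summed to 199 in EAE and 46 in healthy libraries. In NeuN-negative libraries Mcm3 had 18.9, 5.69, 19.02, 5.01 and 16.5 CPM in EAE and 6.39, 7.44, 2.18, 6.41 and 6.08 CPM in healthy mice. EAE replicates 2 and 4 lay within the healthy range, and the value was 1.47 ± 0.43 (adjusted p = 0.0186), or 1.73 ± 0.28 without the 3 replicates (adjusted p = 0.000688).

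Mcm5 had 3.40, 5.37, 5.34, 4.55 and 3.36 CPM in EAE and 2.25, 2.48, 1.09, 4.63 and 2.39 CPM in healthy NeuN-positive libraries, with healthy replicate 4 among the EAE values, at 0.90 ± 0.44 (adjusted p = 0.188). The values were 10.7, 17.3, 19.4, 12.6 and 17.6 CPM in NeuN-negative libraries of EAE mice and 8.69, 6.80, 3.03, 5.62 and 6.79 CPM in healthy mice, all EAE libraries above all healthy ones, at 1.71 ± 0.37 (adjusted p = 0.00321). Mcm2 had 6.06, 3.28, 6.14, 2.20 and 5.79 CPM in EAE and 4.66, 4.83, 4.26, 4.70 and 4.59 CPM in healthy NeuN-positive libraries. The healthy values lay close together, EAE values lay on either side of them, and the log2 fold change was 0.13 ± 0.35 (adjusted p = 0.836). The values were 9.23, 19.8, 14.4, 10.9 and 8.91 CPM in NeuN-negative libraries of EAE mice and 4.75, 4.45, 6.78, 7.42 and 7.43 CPM in healthy mice, with no overlap, at 1.43 ± 0.41 (adjusted p = 0.0175). The remaining subunits Mcm4, Mcm6 and Mcm7 had log2 fold changes of 0.38 ± 0.44, 0.22 ± 0.39 and -0.77 ± 0.37 in NeuN-positive nuclei (adjusted p = 0.603, 0.742 and 0.182). In NeuN-negative nuclei they had 0.27 ± 0.50, 0.65 ± 0.36 and -0.38 ± 0.30 (adjusted p = 0.711, 0.183 and 0.35). The loader Cdc6 and the helicase cofactor Cdc45 had 1.22 ± 0.49 and 0.81 ± 0.59 in NeuN-positive nuclei (adjusted p = 0.12 and 0.383), and 1.65 ± 0.74 and 1.22 ± 0.66 in NeuN-negative nuclei (adjusted p = 0.103 and 0.171). The median over the 9 genes was 0.38 in NeuN-positive and 1.43 in NeuN-negative nuclei.

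Of the 5 genes of DNA synthesis and nucleotide supply, Rrm2, the regulated subunit of ribonucleotide reductase, was higher in EAE in NeuN-negative nuclei. It had 1.03, 1.94, 2.16, 1.32 and 2.43 CPM in EAE and 0.696, 0.966, 0.891, 0.843 and 1.62 CPM in healthy NeuN-positive libraries, overlapping, at 0.95 ± 0.50 (adjusted p = 0.229). In NeuN-negative libraries Rrm2 had 7.45, 6.77, 4.38, 3.81 and 5.76 CPM in EAE and 0.250, 0.485, 3.15, 0 and 1.05 CPM in healthy mice. All EAE libraries lay above all healthy ones, of which replicate 3 was highest and replicate 4 had no count, and the log2 fold change was 2.82 ± 0.90 (adjusted p = 0.0298). Pcna, the sliding clamp of DNA polymerases, which also serves DNA repair, had 1.85, 3.28, 2.67, 6.61 and 3.88 CPM in EAE and 1.93, 2.21, 1.29, 1.26 and 4.36 CPM in healthy NeuN-positive libraries, overlapping, at 0.87 ± 0.50 (adjusted p = 0.266). Levels in NeuN-negative libraries were 8.93, 17.9, 5.59, 7.78 and 9.54 CPM in EAE and 4.75, 5.62, 3.39, 2.47 and 14.8 CPM in healthy mice. Healthy replicate 5 lay among the EAE values and the others below them or at their low end, at 1.15 ± 0.52 (adjusted p = 0.103). The constant reductase subunit Rrm1, thymidylate synthase Tyms and thymidine kinase Tk1 had log2 fold changes of 0.26 ± 0.31, 0.76 ± 0.32 and -0.63 ± 0.36 in NeuN-positive nuclei (adjusted p = 0.617, 0.134 and 0.265). In NeuN-negative nuclei they had 0.52 ± 0.40, 1.0 ± 0.47 and 0.82 ± 0.34 (adjusted p = 0.347, 0.117 and 0.0834). Tyms and Tk1 passed the threshold in NeuN-negative nuclei without the 3 replicates, at 1.22 ± 0.37 (adjusted p = 0.027) and 1.12 ± 0.33 (adjusted p = 0.023).

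Of the mitotic cyclins, Cdk1 and Cdc20, Ccnb1 was higher in EAE NeuN-negative nuclei. Cyclin B1, which carries Cdk1 into mitosis, had 0.222, 0, 0.625, 0 and 1.05 CPM in EAE and 0.375, 0.172, 0.693, 0 and 0.0386 CPM in healthy NeuN-positive libraries, too few counts to be tested. The values were 1.94, 7.85, 0.807, 1.38 and 3.39 CPM in NeuN-negative libraries of EAE mice and 0.200, 0.324, 0.484, 0 and 0.378 CPM in healthy mice. The groups do not overlap, and the log2 fold change was 3.88 ± 1.0 (adjusted p = 0.00972) on 120 counts in EAE and 30 in healthy libraries. Cdk1 had 0.814, 3.13, 1.36, 0 and 2.17 CPM in EAE and 0.375, 0.241, 0.792, 0.140 and 0.578 CPM in healthy NeuN-positive libraries. Here 4 EAE libraries lay above all healthy ones and EAE replicate 4 had no count, at 1.97 ± 0.85 (adjusted p = 0.143). In NeuN-negative libraries Cdk1 had 7.82, 0, 7.67, 5.36 and 2.52 CPM in EAE and 0, 0.445, 5.21, 0 and 0.189 CPM in healthy mice. EAE replicate 2 had no count and healthy replicate 3 lay among the EAE values, and the value was 2.14 ± 1.28 (adjusted p = 0.218). Without the 3 replicates, of which these are 2, Cdk1 was at 5.23 ± 0.84 (adjusted p = 0.000615). In NeuN-positive nuclei Ccna2 and Ccnb2, the genes of cyclins A2 and B2, were at 0.88 ± 0.31 and -0.62 ± 0.45 (adjusted p = 0.0814 and 0.386). Ccna2 ranged there over 8.05 to 22.8 CPM in EAE and 5.15 to 13.5 CPM in healthy libraries, and Ccnb2 over 0.895 to 3.53 CPM in EAE and 1.83 to 5.99 CPM in healthy libraries. Cyclin A2, which serves S phase and mitosis, ranged over 0.519 to 11.1 CPM in EAE and 2.65 to 5.10 CPM in healthy NeuN-negative libraries (0.95 ± 0.61, adjusted p = 0.247). Of its exon bases 12.5% overlap Exosc9 on the other strand. Cyclin B2 ranged over 1.08 to 6.85 CPM in EAE and 0.969 to 1.75 CPM in healthy NeuN-negative libraries (1.75 ± 0.70, adjusted p = 0.0718), and Cdc20, which starts the destruction of cyclin B, over 2.65 to 5.21 CPM in EAE and 0.363 to 2.92 CPM in healthy libraries (1.56 ± 0.68, adjusted p = 0.0952).

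The 15 genes of chromosomes, spindle and division held 3 of the 8 higher calls in EAE NeuN-positive and 12 of the 21 in EAE NeuN-negative nuclei, with 13 and 15 genes tested. The median log2 fold change was 0.05 over the 13 in NeuN-positive and 2.39 over the 15 in NeuN-negative nuclei, and without the 3 replicates 0.57 over 14 and 2.47 over 15. Mki67, the Ki-67 protein of cycling nuclei that coats mitotic chromosomes, had 6.73, 17, 12.7, 2.64 and 5.13 CPM in EAE and 0.214, 0.517, 0.693, 0.562 and 0.231 CPM in healthy NeuN-positive libraries. Its lowest EAE value was above the highest healthy value, and the log2 fold change was 4.47 ± 0.62 (adjusted p = 0.000431) on 525 counts in EAE and 40 in healthy libraries. In NeuN-negative libraries Mki67 had 92.7, 16.8, 54.9, 21.8 and 60.7 CPM in EAE and 2.20, 2.87, 3.63, 2.25 and 3.60 CPM in healthy mice. The groups are apart there too, at 4.32 ± 0.41 (adjusted p = 2.74e-06). Within the EAE mice, each NeuN-positive library held less Mki67 than the NeuN-negative library of the same number, except replicate 2, at 17 CPM in NeuN-positive and 16.8 CPM in NeuN-negative nuclei. Top2a, the topoisomerase that untangles chromosomes before they separate, had 1.997, 13.7, 4.72, 4.84 and 3.62 CPM in EAE and 0.161, 0.172, 0.594, 0.140 and 0.116 CPM in healthy NeuN-positive libraries, with no overlap. EAE replicate 2 and healthy replicate 3 were the highest of their groups. The log2 fold change was 4.86 ± 0.75 (adjusted p = 0.00092), and 4.61 ± 0.47 without the 3 replicates (adjusted p = 0.000352). In NeuN-negative libraries Top2a had 16.4, 13.3, 14.2, 9.34 and 15.5 CPM in EAE and 0.250, 0.526, 3.27, 1.57 and 0.649 CPM in healthy mice. These do not overlap either, at 3.79 ± 0.65 (adjusted p = 0.000577), and healthy replicate 3 was the highest healthy value.

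**Figure D3:**
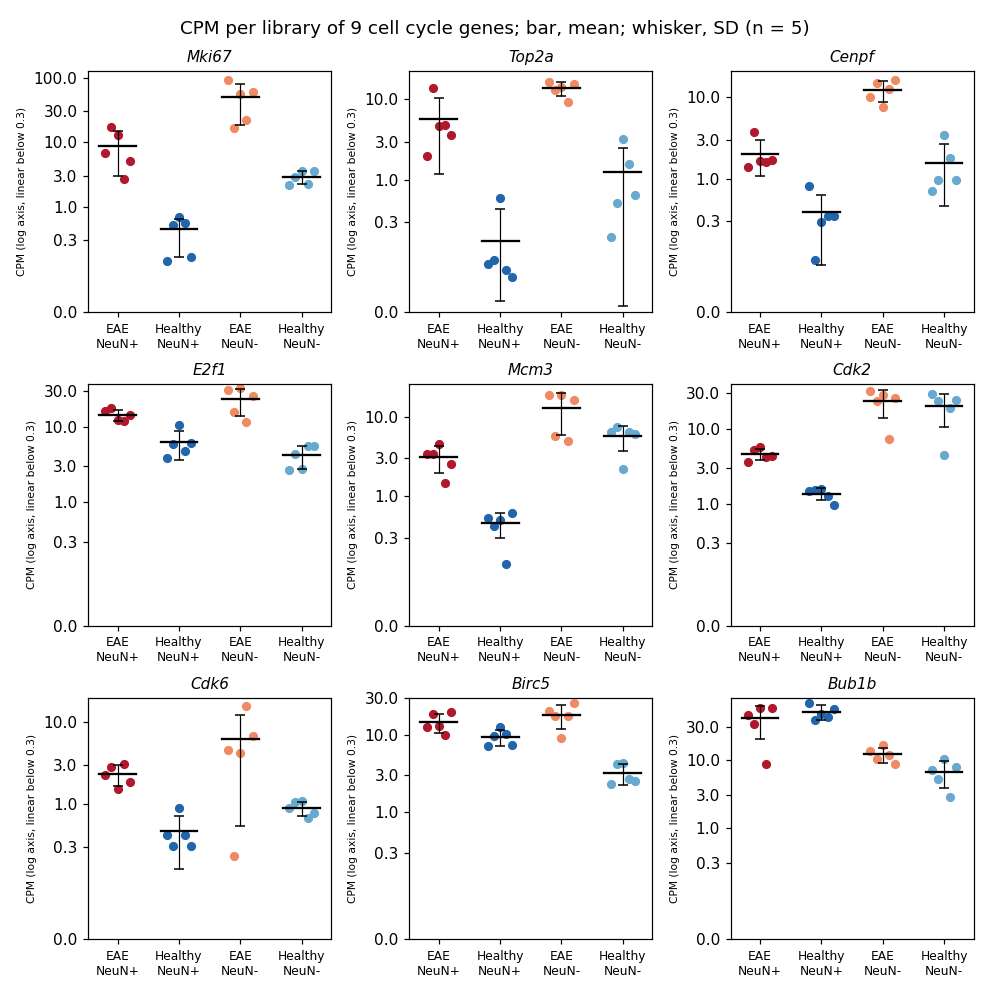
CPM of 9 genes in every library of the 4 groups, on axes that are logarithmic above 0.3 CPM and linear below, with the mean as a bar and the SD as whisker (n = 5). Mki67, Top2a and Cenpf separate EAE from healthy libraries in both sorts, Birc5 in NeuN-negative libraries, and Bub1b lies higher in NeuN-positive than in NeuN-negative libraries of either condition, except EAE NeuN-positive replicate 4.

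Cenpf, a kinetochore protein of G2 and mitosis, had 1.41, 3.73, 1.65, 1.61 and 1.71 CPM in EAE and 0.803, 0.172, 0.297, 0.351 and 0.347 CPM in healthy NeuN-positive libraries. All EAE libraries lay above all healthy ones, of which replicate 1 was highest, and the value was 2.50 ± 0.62 (adjusted p = 0.0224), or 2.07 ± 0.54 without the 3 replicates (adjusted p = 0.0409). In NeuN-negative libraries Cenpf had 10.1, 14.6, 7.44, 12.6 and 16.1 CPM in EAE and 0.700, 0.971, 3.39, 1.80 and 0.973 CPM in healthy mice, with no overlap, at 3.34 ± 0.58 (adjusted p = 0.000613). Birc5, which encodes survivin, a subunit of the chromosomal passenger complex, had 12.7, 18.4, 12.9, 9.84 and 19.5 CPM in EAE and 7.22, 9.52, 12.7, 10.2 and 7.37 CPM in healthy NeuN-positive libraries, overlapping, at 0.76 ± 0.32 (adjusted p = 0.132). In NeuN-negative libraries Birc5 had 20.3, 17.3, 9.11, 17.3 and 25.6 CPM in EAE and 2.30, 4.17, 4.36, 2.70 and 2.51 CPM in healthy mice, with no overlap, at 2.84 ± 0.42 (adjusted p = 0.000161). The EAE effect on Birc5 was lower in NeuN-positive than in NeuN-negative nuclei in the test of the difference, with a value of -1.91 ± 0.51 (adjusted p = 0.0401), a call lost in 16 of 26 alternatives. Aurkb, the kinase of the same complex, ranged over 3.71 to 8.12 CPM in EAE and 0.162 to 1.01 CPM in healthy NeuN-negative libraries, which do not overlap (3.63 ± 0.74, adjusted p = 0.00231).

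The other 7 division genes called higher in EAE NeuN-negative nuclei were not called in NeuN-positive nuclei. There the spindle motor genes Kif11 and Kif23 were at 0.05 ± 0.73 and -0.03 ± 0.52, the spindle assembly genes Tpx2 and Nusap1 at 1.06 ± 0.43 and -0.39 ± 0.42, the kinase gene Aurka at -0.43 ± 0.44 and the checkpoint gene Bub1b at -0.23 ± 0.37, and Bub1 was below the count filter, with 51 counts over the EAE and 3 over the healthy libraries. In NeuN-negative nuclei the 7 had log2 fold changes of 1.17 to 3.15. The spindle checkpoint kinase gene Bub1 had 212 counts over the EAE and 40 over the healthy NeuN-negative libraries, at 3.15 ± 1.10 (adjusted p = 0.0421), with healthy replicate 3 among the EAE values. Kif11 and Kif23 were at 2.51 ± 0.84 (adjusted p = 0.0362) and 2.39 ± 0.72 (adjusted p = 0.022). Tpx2 and Nusap1 were at 1.88 ± 0.54 (adjusted p = 0.0181) and 1.91 ± 0.59 (adjusted p = 0.0256), and Aurka, the kinase that Tpx2 activates, at 1.81 ± 0.58 (adjusted p = 0.0292). Bub1b, the checkpoint protein BubR1, was at 1.17 ± 0.40 (adjusted p = 0.0407), a call lost in 12 of 17 alternatives, with 8.67 to 16.6 CPM in EAE and 2.81 to 10.4 CPM in healthy libraries. Of the 3 genes called in neither sort, Plk1, a master kinase of mitosis, was at -0.58 ± 0.43 in NeuN-positive and -0.42 ± 0.45 in NeuN-negative nuclei (adjusted p = 0.394 and 0.498). The kinetochore motor gene Cenpe was at 1.38 ± 0.48 in NeuN-positive and 1.26 ± 0.47 in NeuN-negative nuclei (adjusted p = 0.0798 and 0.0566). The motor gene Kif20a was at -0.74 ± 0.53 in NeuN-positive and 0.96 ± 0.81 in NeuN-negative nuclei (adjusted p = 0.378 and 0.385), and 29.3% of its exon bases overlap Cdc23 on the other strand.

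The CDK inhibitors were called in neither EAE comparison. Cdkn1a encodes p21, an inhibitor of cyclin E with Cdk2 that is induced by p53 and by stress. It had 27.6, 37.4, 30.8, 26.4 and 11.9 CPM in EAE and 15.3, 11.9, 21.2, 16.6 and 10.5 CPM in healthy NeuN-positive libraries. Here 4 EAE libraries lay above all healthy ones, and the log2 fold change was 0.94 ± 0.34 (adjusted p = 0.0907). In NeuN-negative libraries Cdkn1a had 100.1, 31.4, 78.3, 53.1 and 57.4 CPM in EAE and 55.8, 55.8, 58.02, 46.2 and 66.4 CPM in healthy mice, overlapping, at 0.46 ± 0.27 (adjusted p = 0.203), or 0.74 ± 0.23 without the 3 replicates (adjusted p = 0.0308). Cdkn1b encodes p27, which keeps cells in quiescence, and had 18.6, 32.4, 15.1, 8.66 and 17.2 CPM in EAE and 11.7, 10.4, 9.90, 9.76 and 22.4 CPM in healthy NeuN-positive libraries, overlapping, at 0.69 ± 0.37 (adjusted p = 0.238). In NeuN-negative libraries it had 74.5, 20.3, 44.7, 18.7 and 55.6 CPM in EAE and 66.95, 57.8, 33.4, 39.4 and 118 CPM in healthy mice. EAE replicates 2 and 4 were the lowest and healthy replicate 5 the highest of all, at -0.25 ± 0.35 (adjusted p = 0.617).

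Both EAE comparisons called 6 of the genes higher, Cdk6, E2f1, Mcm3, Mki67, Top2a and Cenpf, which are 6 of the 8 in NeuN-positive and 6 of the 21 in NeuN-negative nuclei. A fit of all 20 libraries tested whether the EAE effect differed between the sorts, with a positive value for a larger effect in NeuN-positive nuclei. It called 0 of the 45 genes higher and 2 lower, Ccne1 and Birc5, against 1.74% and 0.822% of the 20444 genes tested. At an unadjusted p under 0.05 there were 3 upward and 11 downward, with no share over all genes to set beside them, so they are no result about the 45. The DESeq2 Wald test called 0 higher and 9 lower, against 649 higher and 862 lower of all 20444 genes. With the replicate number as a block, 6 were lower, adding Ccnd2, Cdt1, Tk1 and Kif23. Without the 3 replicates Cdk2 was higher and Ccne1, Cdt1, Birc5 and Kif23 were lower. Leaving out single libraries gave 4 lower calls without healthy NeuN-negative replicate 3, 2 without EAE NeuN-negative replicate 2 or 3 or EAE NeuN-positive replicate 2, 1 without EAE NeuN-positive or healthy NeuN-negative replicate 5, and 0 without any 1 of the other 14 libraries. For the genes called in both sorts the differences were not called, at 0.25 ± 0.62 (adjusted p = 0.875) for Mki67, 1.15 ± 0.88 (adjusted p = 0.518) for Top2a, 1.52 ± 0.65 (adjusted p = 0.203) for Mcm3 and -1.28 ± 0.50 (adjusted p = 0.159) for E2f1. Over all genes called here, 67.9% were higher with TMM scaling and 50% with DESeq2 size factors, under which the median log2 value of all genes shifted by -0.25.

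In EAE mice 1 of the 45 genes was higher in NeuN-positive than in NeuN-negative nuclei and 22 were lower. The share lower was 48.9%, against 14.8% of the 17982 genes tested, and 15.5% of all genes were called higher. The median over the 45 genes was -1.41, against -0.16 over all genes. Without the EAE replicates 2 and 4 the counts were 3 and 27, against 3787 and 3768 of all 18111 genes tested. The added higher genes were Ccne1 and Plk1. The lower count was 13 or 14 without NeuN-positive replicates 1, 3 or 5 or NeuN-negative replicates 1 or 5, and the higher count was 2 or 3 without NeuN-positive replicates 2 or 3 or NeuN-negative replicate 1. Bub1b stayed higher in NeuN-positive nuclei in each of the 17 alternatives, with 44.9, 33.4, 58.5, 8.81 and 58.7 CPM in NeuN-positive and 13.2, 10.3, 16.6, 11.8 and 8.67 CPM in NeuN-negative libraries of EAE mice. NeuN-positive replicate 4 lay at the level of the NeuN-negative libraries, and the log2 fold change was 1.52 ± 0.41 (adjusted p = 0.0107). Division genes gave 9 of the 22 lower calls, among them Aurkb (-3.10 ± 0.76, adjusted p = 0.00566), Cenpf (-2.89 ± 0.52, adjusted p = 0.000569) and Mki67 (-2.62 ± 0.49, adjusted p = 0.000796). Licensing genes gave 4, Mcm2, Mcm3, Mcm5 and Mcm6, at -1.72 to -2.23, and the synthesis genes Pcna, Rrm2 and Tk1 gave 3. Both inhibitors were lower, Cdkn1a at -1.44 ± 0.34 (adjusted p = 0.00413) and Cdkn1b at -1.37 ± 0.39 (adjusted p = 0.0144). With the replicate number as a block, Ccnb1 was not called (-3.17, adjusted p = 0.0718), E2f1 and Bub1 were lower (-0.84, adjusted p = 0.0415, and -2.99, adjusted p = 0.0105), and Ccne2 was higher (1.08, adjusted p = 0.0312). With DESeq2 size factors the median log2 value of all genes shifted by -0.10 here. Markers of other cells were lower in NeuN-positive EAE nuclei too, with 12 of 12 for microglia, 9 of 12 for monocytes and macrophages, 9 of 14 for T cells (1 was higher), 4 of 8 for neutrophils, 5 of 8 for B and plasma cells, 9 of 12 for oligodendrocytes, 7 of 10 for their precursors, 6 of 10 for astrocytes, 6 of 10 for endothelial cells and 8 of 10 for fibroblasts and pericytes. Of 5 ependymal markers tested, 1 was higher and 0 were lower. The part of all these cells in the differences was not tested.

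**Figure D4:**
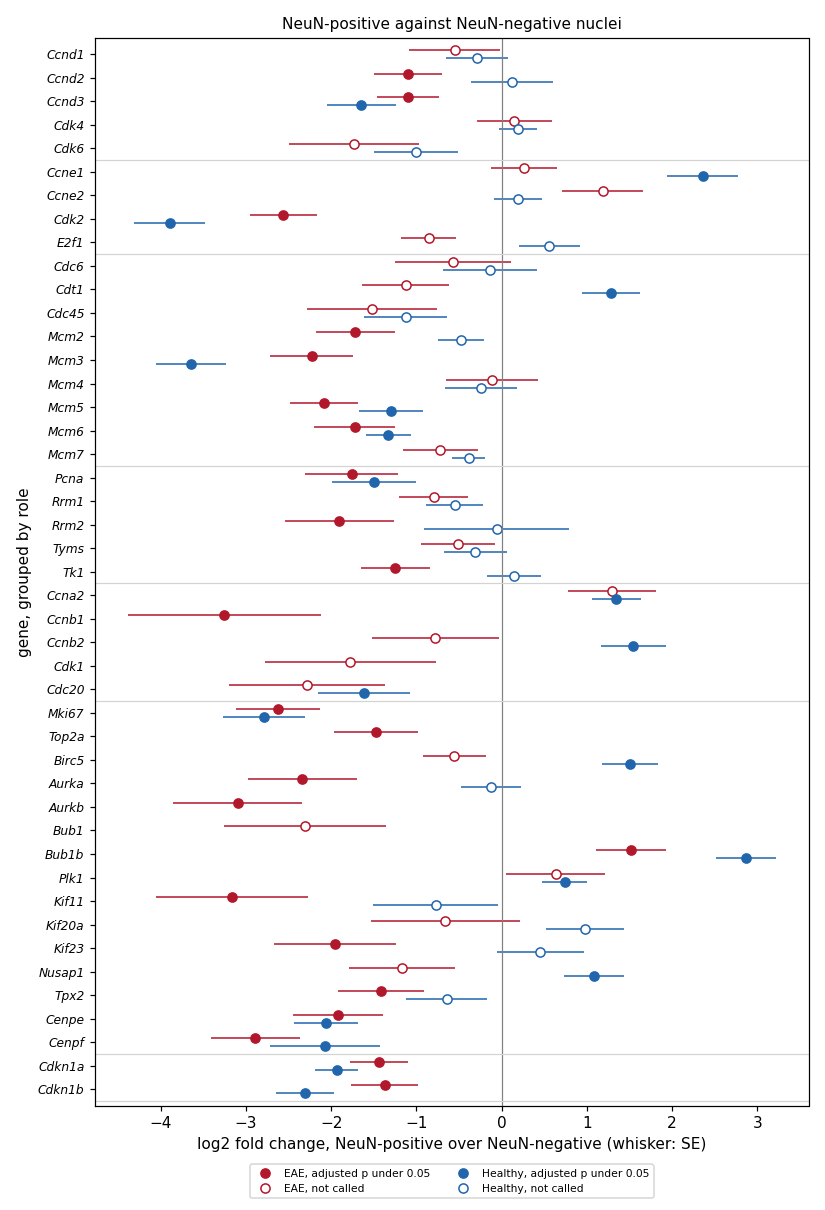
Log2 fold change of each gene, NeuN-positive over NeuN-negative nuclei, in EAE mice (red) and healthy mice (blue), with the standard error as whisker and filled points for an adjusted p under 0.05. In EAE mice the filled points lie below 0 except Bub1b, and in healthy mice they lie on either side, with Bub1b and Ccne1 highest and Cdk2 and Mcm3 lowest.

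The healthy mice show where each gene lies without disease. Of the 40 genes tested, 8 were higher in NeuN-positive than in NeuN-negative nuclei and 12 were lower (20% and 30%), against 22.8% and 23% of the 17134 genes tested, shares near that background. The genes higher in NeuN-positive nuclei were Bub1b (2.86 ± 0.35), Ccne1 (2.36 ± 0.41), Ccnb2 (1.54 ± 0.38), Birc5 (1.5 ± 0.33), Ccna2 (1.35 ± 0.29), Cdt1 (1.28 ± 0.34), Nusap1 (1.08 ± 0.36) and Plk1 (0.74 ± 0.27), with adjusted p from 3.74e-05 to 0.0388. Exon bases of Ccna2 (12.5%, Exosc9), Plk1 (7.09%, Gm44985) and Nusap1 (4.24%, Oip5) overlap these genes on the other strand. Bub1b had 69.5, 38.9, 47.6, 43.2 and 56.5 CPM in NeuN-positive and 6.995, 5.30, 10.4, 2.81 and 7.87 CPM in NeuN-negative libraries of healthy mice, which do not overlap. Cyclin E1, given above, was also higher in every healthy NeuN-positive than in any healthy NeuN-negative library. The lower genes were led by Cdk2 (-3.89 ± 0.42, adjusted p = 1.28e-05), Mcm3 (-3.64 ± 0.41, adjusted p = 1.79e-05) and Mki67 (-2.78 ± 0.48, adjusted p = 0.000452). Cdkn1b (-2.31 ± 0.34), Cenpf (-2.07 ± 0.64), Cenpe (-2.06 ± 0.37), Cdkn1a (-1.94 ± 0.25), Ccnd3 (-1.65 ± 0.41), Cdc20 (-1.61 ± 0.54), Pcna (-1.5 ± 0.49), Mcm6 (-1.33 ± 0.27) and Mcm5 (-1.30 ± 0.37) followed. For the inhibitors, every healthy NeuN-positive library held less Cdkn1a and less Cdkn1b than any healthy NeuN-negative library. With the replicate number as a block, Kif20a was higher as well (1.05, adjusted p = 0.0111) and Mcm7 lower (-0.37, adjusted p = 0.0311). Of all 17134 genes 5683 were then higher and 5560 lower, against 3910 and 3938 without the block.

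Levels were compared between genes as CPM per kilobase of GENCODE M21 exon. In EAE NeuN-positive nuclei Cdk4 and Bub1b stood highest, at 11.2 ± 5.28 and 9.56 ± 4.86 CPM per kb (SD, n = 5 in each group), which do not differ beyond their spread. In healthy NeuN-positive nuclei Cdk4 stood highest at 21.8 ± 4.37 CPM per kb, then Bub1b at 12 ± 2.84 and Ccne1 at 7.49 ± 1.35, and Bub1, Cenpf and Top2a lowest at 0.00658 ± 0.0068, 0.0255 ± 0.0155 and 0.0263 ± 0.0223. In EAE NeuN-negative nuclei Cdkn1a led at 18 ± 7.35 CPM per kb, with Cdkn1b, Cdk4 and Ccnd3 between 8.79 and 9.4, and Mki67 at 4.91 ± 3.09. In healthy NeuN-negative nuclei Cdk4, Cdkn1a and Cdkn1b led at 18.7 ± 6.05, 15.9 ± 2.03 and 13.9 ± 7.38 CPM per kb, within one another's spread, and Cdk6 was lowest at 0.0643 ± 0.0126. The same models hold pseudogenes of Ccnd3, Ccnb1, Ccnb2, Tyms and Pcna, and how reads shared with them were counted is not given in the sources used here.

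Other genes of the cycle were taken from 4 lists of 112 genes. In EAE NeuN-positive nuclei 3 of 91 tested were higher, E2f2 (1.12 ± 0.32, adjusted p = 0.0417), the chromatin gene Hmgb2 (2.54 ± 0.63, adjusted p = 0.0218) and the replication protein gene Rpa2 (0.85 ± 0.24, adjusted p = 0.0368), and Prim1 was lower (-1.40 ± 0.40, adjusted p = 0.0423). Those shares lie below the 6.55% and 3.68% of all genes. Without the 3 replicates 7 of 94 were higher, 6 of them mitotic, against 1249 of 17315 genes, and 1 was lower. In EAE NeuN-negative nuclei 34 of 107 tested were higher and 8 lower, against 15.1% and 12.6% of all genes, with a median log2 fold change of 0.39, against 0.05 over all genes. The largest share was in the mitotic list, with 19 of 39 higher and 2 lower (median 1.82). Its smallest p belonged to Espl1, the separase that cuts cohesin, at 2.62 ± 0.39 (adjusted p = 0.000192), then Kif15, a spindle motor, at 2.89 ± 0.49 (adjusted p = 0.000577), and Ckap2l, a spindle protein, at 4.02 ± 0.75 (adjusted p = 0.00119). Of 25 replication genes tested 6 were higher and 3 lower, among them Uhrf1, which keeps DNA methylation through replication, at 2.76 ± 0.40 (adjusted p = 0.000125), and the primase subunit Prim1 at -1.63 ± 0.40 (adjusted p = 0.00792). Of 26 regulators of CDKs, RB and E2F 6 were higher and 2 lower, including E2f2 (2.74 ± 0.45, adjusted p = 0.000408), the RB relative Rbl1 (2.02 ± 0.40, adjusted p = 0.00174) and E2f8, a repressor E2F, (4.63 ± 0.92, adjusted p = 0.0019). Of 17 genes of the p53 response with growth arrest or damage roles 3 were higher and 1 lower, among them Gadd45b (1.38 ± 0.35, adjusted p = 0.00905) and Btg2 (1.46 ± 0.43, adjusted p = 0.0213), while Trp53, the gene of p53 itself, was the lower one (-1.47 ± 0.38, adjusted p = 0.00964). The higher share of these 17 genes is near that of all genes and is no result about them. In each of the 4 lists the lower share is near or below the 12.6% of all genes and is no result about the list.

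Among the 37 genes with a promoter window, the motifs were set beside the calls in NeuN-negative nuclei. CHR matches stood in 9 of the 19 genes called higher (47.4%) and in 6 of the 18 not called (33.3%). CCAAT boxes stood in 13 of 19 and 13 of 18, and E2F matches in 3 of 19 and 5 of 18. Every E2F match of a gene called higher there lay in a licensing gene, namely Cdt1, Mcm3 and Mcm5, whose sequences are printed above. Of the 6 genes called higher in both sorts, Mki67, Top2a and Cenpf held CHR matches and Mcm3 an E2F match, while Cdk6 and E2f1 held none of the searched motifs.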

How the data were processed

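RNA was extracted with a Qiagen RNeasy kit, selected for poly A and built into libraries with Illumina TruSeq reagents. These steps are as the labels' protocols state them. The deposited table holds whole-number read counts of 43629 genes in 20 libraries, not normalized; STAR 2.4, DESeq2, GRCm39 and mm10 are named, without a role, per the submitters' processing notes. How reads were counted, by which annotation and with or without strand, is not given in the sources used here. Totals were 3149209 to 37689267 counts per library, and low counts limit the precision of genes such as Ccnb1 and Bub1.

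The 45 genes and the lists were chosen with earlier results of these data known. Each comparison was fitted on the whole table with edgeR 4.0.16 in R 4.3.3 (filterByExpr, TMM, robust quasi-likelihood test, Benjamini-Hochberg adjustment, called at 0.05), with 10 libraries per fit and all 20 for the difference between sorts. A standard error is the size of the log2 fold change over the root of F. Every-library values are given for genes called in an EAE comparison or in the difference, at most 4 per role by smallest p, and always for Mki67, Top2a, Cdk1, Ccnd1, Ccnd2, Pcna, Cdkn1a and Cdkn1b. Gene models of GENCODE M21 (GRCm38) were matched by gene ID for exon length and overlap, and no coordinates of the table were used. The fits were run on simulated data with a fixed spread and large changes in well-counted genes, which does not cover genes with low counts. No 2 libraries of a group agreed within sampling noise. NeuN-positive and NeuN-negative libraries of the same number deviated together (r = 0.118 to 0.389 in EAE and 0.282 to 0.703 in healthy mice). Those of different numbers had r = -0.25 to 0.203 in EAE and -0.501 to 0.325 in healthy mice, so the ranges overlap. For each NeuN-positive library the NeuN-negative library of its own number had the highest r, except healthy replicate 2 (0.282, against 0.289 with replicate 5). The main fits treat libraries of the same number as independent. The comparisons between sorts were therefore also fitted with the replicate number as a block. Alternatives were DESeq2 1.42.0 size factors, the DESeq2 Wald test, no count filter, 1 CPM in 5 libraries, the block, all 20 libraries, leaving out replicates with over 2% mitochondrial counts in NeuN-positive nuclei, and leaving out each library.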

Additional observations from a re-analysis of the deposited data

Results flagged for a closer look

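Of 88 groups of 5 libraries looked at for the 22 genes given in full, 13 held a library far from the other 4. Independent, normally distributed values pass the limit used in about 1 in 20 groups. CPM of genes from the same libraries need not follow that rate. Healthy replicate 3 gave 6 of the 13 far values. In NeuN-negative nuclei it was far above the others for Ccnd3 (113.3 CPM) and Cdk1 (5.21 CPM) and far below them for Mcm3 (2.18 CPM). In NeuN-positive nuclei it was far above them for Cdk6 (0.891 CPM) and Top2a (0.594 CPM) and far below them for Cdk4 (46.3 CPM). Healthy replicate 1 was high for Cenpf in NeuN-positive nuclei (0.803 CPM). Healthy replicate 5 was high for Ccnd1 (16.9 CPM) and Pcna (14.8 CPM) in NeuN-negative nuclei and for Cdkn1b (22.4 CPM) in NeuN-positive nuclei. Of the EAE NeuN-positive libraries, replicate 2 was high for Top2a (13.7 CPM) and Cenpf (3.73 CPM) and replicate 3 for Cdk4 (66.9 CPM).

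The EAE effect differed between the sorts, by the test of the difference, for Ccne1 and Birc5. The effect in NeuN-positive minus that in NeuN-negative nuclei was -1.97 for Ccne1 and -1.91 for Birc5 on the log2 scale (edgeR adjusted p = 0.0445 and 0.0401). The call was lost in 18 of 26 alternatives for Ccne1 and in 16 of 26 for Birc5. In NeuN-negative nuclei 5 of 5 EAE libraries lay above all healthy ones for both genes.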

How the results depend on the processing

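No log2 fold change called for these genes turned its sign under any alternative, and the healthy sort comparison kept its counts within 1.5 times. For EAE in NeuN-positive nuclei, 8 higher calls became 13 with the DESeq2 Wald test and 4 with the replicate block, and 4 to 9 when 1 library was left out. The 1 lower call became 0 with DESeq2 size factors, the replicate block, all 20 libraries or without the 3 replicates, and 0 to 1 when 1 library was left out. For EAE in NeuN-negative nuclei the higher calls were 11 to 26 and the lower calls 0 to 1 when 1 library was left out. EAE and healthy libraries of the same number were not paired (r = -0.342 to 0.274), so for them the replicate block rests on shared numbers. For the sorts in EAE mice, the 1 higher call became 3 without a count filter, with all 20 libraries or without the 3 replicates, and 2 with the replicate block, and the 22 lower calls became 11 without a count filter. Leaving out 1 library gave 1 to 3 higher and 13 to 21 lower calls. For the difference between sorts, the 2 lower calls became 9 with the Wald test, 0 without a count filter, 6 with the replicate block and 4 without the 3 replicates, where 1 gene was higher, and 0 to 4 when 1 library was left out. The cause of these moves was not tested.

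Over all genes, the calls for EAE in NeuN-positive nuclei were 1092 higher and 613 lower, against 1746 and 1247 with the Wald test, with 317 lower without the 3 replicates. For EAE in NeuN-negative nuclei 2650 higher became 5618 without a filter and 2220 lower became 3786 with all 20 libraries. For the sorts in EAE mice 2662 lower became 4065 with the Wald test. The difference between sorts gave 356 higher and 168 lower, against 236 and 236 with size factors, 649 and 862 with the Wald test, 183 and 85 without a filter, 1992 and 500 with the replicate block, and 363 and 362 without the 3 replicates.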

Other observations

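The other genes of the cycle were also set beside the NeuN sort. In EAE mice 7 of 110 tested were higher in NeuN-positive than in NeuN-negative nuclei and 21 were lower, among them 11 of 40 mitotic genes, whose median was -1.63 on the log2 scale. Of all genes, 15.5% were higher and 14.8% lower, and without EAE replicates 2 and 4 the counts were 13 and 40, with 22 mitotic genes lower. Cdc25b, a phosphatase that activates CDKs, was higher at 2.47 ± 0.38 (edgeR adjusted p = 0.000171), and Cdc7, the kinase that fires origins, at 2.44 ± 0.40 (adjusted p = 0.000299). In healthy mice 19 of 96 were higher and 25 lower, near the 22.8% and 23% of all genes, so these counts are no result about the lists. Cdc25b and Cdc7 were again higher, at 2.61 ± 0.18 (adjusted p = 5.46e-07) and 2.29 ± 0.37 (adjusted p = 0.000262). The cytokinesis gene Anln was lower there at -4.50 ± 0.42 (adjusted p = 4.5e-06) and the condensin gene Smc4 at -2.77 ± 0.32 (adjusted p = 2.18e-05).

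The test of the difference of the EAE effect called 1 of these 110 genes higher and 1 lower, both mitotic, shares near or below the 1.74% and 0.822% of all genes. Without the 3 replicates (EAE 2 and 4, healthy 3) none was higher and 10 were lower, 6 of them mitotic. Anln had 2.61 ± 0.65 (adjusted p = 0.0301), with a larger effect in NeuN-positive nuclei, and Espl1 had -2.29 ± 0.49 (adjusted p = 0.0169), with a smaller one.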
